A study of Mus musculus with 6 samples.

Results

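The genes described here are 10 transcription factor genes that direct early lineage choice in the mouse embryo, namely T, Eomes, Mixl1, Gsc, Mesp1, Gata4, Gata6, Sox17, Foxa2 and Cdx2. They were chosen by name, as master regulators of mesoderm, endoderm and trophoblast, among 21938 protein-coding genes of GENCODE release M21 on GRCm38, the assembly also called mm10. For each gene, every H3K4me3 peak and every ASH2L peak that touched the gene body or the 5000 bp upstream of it was taken, and this stretch is called the gene window. The question was which of these genes carried H3K4me3 or ASH2L in undifferentiated embryonic stem cells, how far along the gene, and with how many tags.

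The data came from CUT&RUN, in which MNase fused to protein A is guided by an antibody and cuts out the DNA around the antigen for sequencing. The series has 6 samples of E14, a mouse embryonic stem cell line kept in serum with LIF, in 3 groups of 2. In the HA-ASH2L E14 line, anti-H3K4me3 was used in 1 group and anti-HA in another. In the third group, anti-HA was used in parental E14, which have no tagged protein. All received doxycycline for 48 h, which turns on the HA-ASH2L transgene in the cells that carry it. HA-ASH2L E14 is a line grown from a picked colony with a piggyBac transgene, although its label calls it a knock-in. The labels give 1000000 cells for anti-HA and 100000 cells for anti-H3K4me3, whereas the study's methods give the former number for each experiment. The authors merged the duplicates before calling peaks, so the lists carry no value for a single sample. All values below are therefore from 1 merged library per antibody, no spread between samples can be given, and no difference was tested. Parental E14 anti-HA was not used here.

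The H3K4me3 list held 59927 peaks called from 27328071 tags, with 45.7% of the tags in peaks, and the ASH2L list held 2464 peaks called from 25677963 tags, with 0.398% of the tags in peaks. Of 6 defining genes of embryonic stem cells, Klf4, Esrrb and Zfp42 had an H3K4me3 peak over a start site, whereas Pou5f1, Sox2 and Nanog had no peak anywhere in their windows. The longest peak of the H3K4me3 list was 8609 bp, and per the file headers MACS took its local background from 10000 bp around a site. A gene without a peak in these lists can thus not be read as a gene without the mark, and the part of peak calling in these gaps was not tested.

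H3K4me3, trimethylation of histone H3 at lysine 4, is placed by the MLL and SET1 methyltransferases and marks the start sites of active genes. ASH2L is a shared core subunit of these enzymes. In embryonic stem cells, developmental regulators that are silent or barely transcribed are known to carry H3K4me3 together with the Polycomb mark H3K27me3, a state called bivalent. H3K27me3 and transcription were not analysed here.

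Each of the 10 genes had at least 1 H3K4me3 peak in its window and at least 1 annotated start site inside a peak. Over all protein-coding genes, 76.2% had an H3K4me3 peak in the window and 67.3% had one over a start site. The order turned when only peaks at or above the list's median fold enrichment were kept, with 3 of the 10 genes and 50.5% of coding genes having a peak in the window. The 10 genes together had 16 peaks, of which 10 held a start site of the gene and 6 did not. These peaks were 1111 to 6926 bp long, with 102 to 939 tags each. No ASH2L peak touched the window of any of the 10 genes, and 10.4% of protein-coding genes had one. The count of 10 without ASH2L therefore lies close to what most coding genes show. The ASH2L share of coding genes was 4.35% for windows of 15000 bp or less, a limit chosen after seeing the data, and 1.08% with a score of at least 100.

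**Figure D1:**
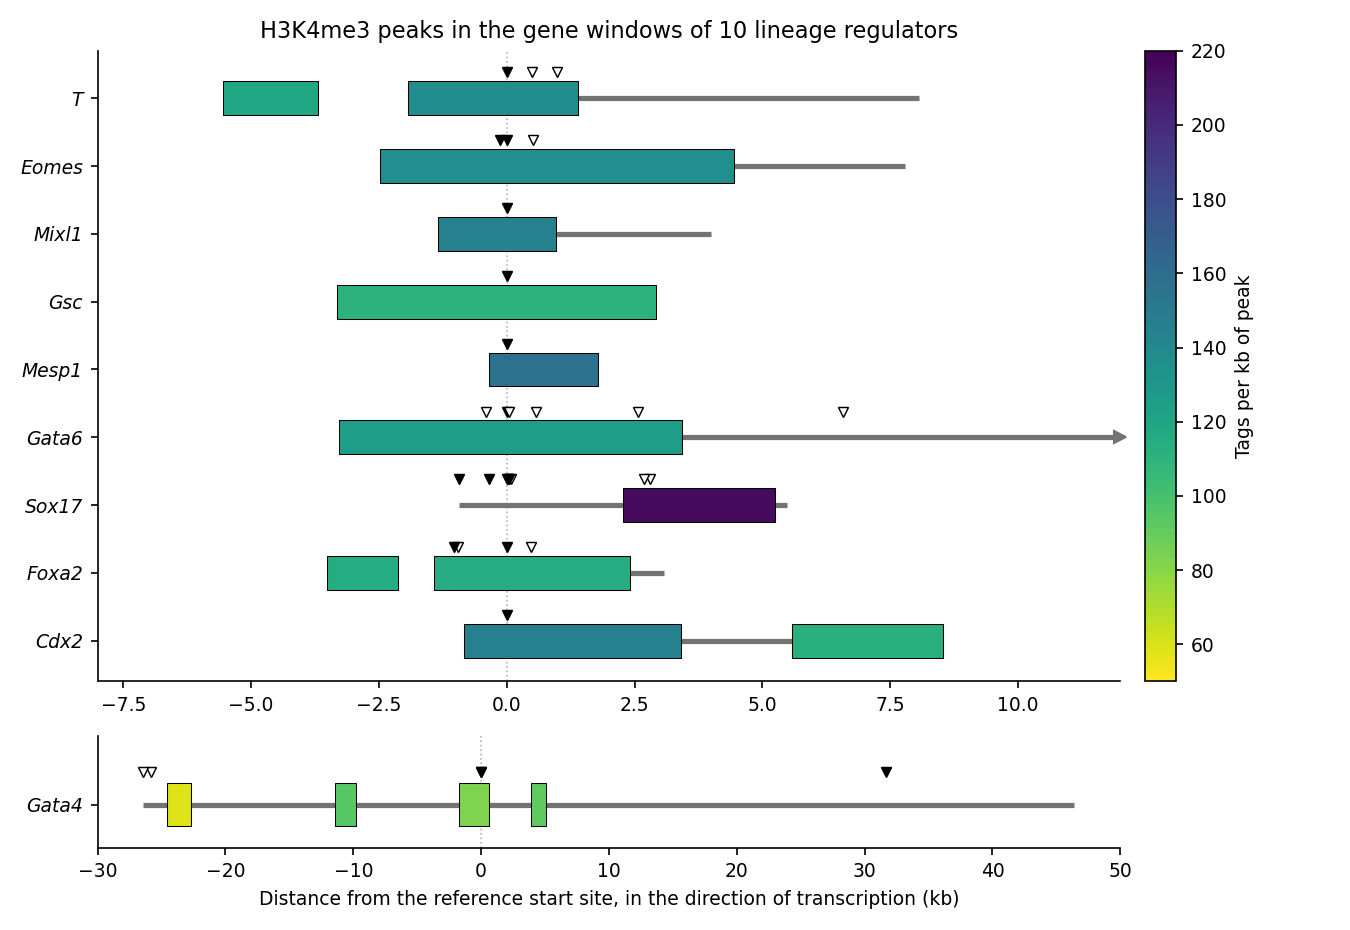
H3K4me3 peaks (boxes) along the gene body (grey line) of each gene, by distance from the reference start site in kb, read in the direction of transcription. Box colour is tags per kb of peak, filled triangles are start sites of GENCODE basic transcripts, open triangles are other annotated start sites, the arrowhead marks a gene that runs on past the axis, and Gata4 has an axis of its own. A box covers the reference start site in every gene but Sox17, whose peak begins 2281 bp downstream of it.

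The reference start site of a gene is that of its basic transcript with the longest coding sequence. Tags per kb are the tags of a peak divided by its length, with 95% Poisson intervals that cover counting error only. Fold enrichment is the authors' value, the tags at the summit of a peak over the local background that MACS modelled from the same library.

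Among the genes of the primitive streak and early mesoderm, T encodes Brachyury, the T-box factor of the streak and notochord. Its start-site peak, chr17:8432486-8435825, reached 1937 bp upstream and 1402 bp into the gene and held 458 tags, or 137 per kb (125 to 150). A further peak, chr17:8428870-8430735, lay wholly upstream of the gene, with its nearer edge 3688 bp from the start. It had 222 tags and 119 per kb (104 to 136), so that the intervals of both densities overlap. The gap between the peaks was 1750 bp.

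Eomes, the T-box gene used in the streak, in definitive endoderm and in trophoblast, had the longest peak of the set. This single peak, chr9:118475862-118482787, was 6926 bp long and reached 4443 bp downstream of the reference start. It held 939 tags at 136 per kb (127 to 145). Among 14772 coding genes with a start-site peak, its length was at percentile 97.5 and its fold enrichment of 3.85 at percentile 7.97. It covered 1386 bp of coding exon and 2280 bp of intron, and all 3 start sites lay inside it.

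Gsc, the homeobox gene of the organizer, had a peak of nearly the same extent, chr12:104470418-104476646, which was 6229 bp long with 694 tags. It took in the whole gene and ran 3316 bp past the start on the upstream side and 791 bp past the end on the other. Its density of 111 per kb (103 to 120) was below that of the Eomes peak, with no overlap of the intervals. The noncoding gene Gm10000 starts 1 bp away on the opposite strand, so that this peak covers both start sites and its tags cannot be divided between them.

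Mixl1 is a homeobox gene of the streak and endoderm, and Mesp1 is the bHLH factor of early cardiac mesoderm. They had the shortest marked stretches in the gene window. The Mixl1 peak, chr1:180696079-180698377, was 2299 bp long with 334 tags, and the Mesp1 peak, chr7:79791997-79794127, was 2131 bp long with 332 tags. Their densities, 145 per kb (130 to 162) and 156 per kb (139 to 173), lay on both sides of the median of 154 over the start-site peaks of coding genes, and both intervals hold it. Their fold enrichments of 7.74 and 6.48 were also the only start-site values of the set above the coding median of 6.36. The Mesp1 peak lay mostly within the gene, with 339 bp upstream of the start, whereas the Mixl1 peak had 1343 bp upstream and 955 bp downstream.

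The promoters of T, Gsc and Mesp1 differed in sequence within the 300 bp windows used here. T and Mesp1 were closer to each other in a wider window. Promoters of 300 bp, from 250 bp before to 50 bp after a start, were in the RefSeq promoter table (GRCm38.p6) for 6 of the 10 genes, which are T, Eomes, Gsc, Mesp1, Foxa2 and Cdx2. Mixl1, Gata4, Gata6 and Sox17 have no entry in it. The RefSeq start matched the reference start at T and Foxa2. It lay 155 bp away at Eomes, 94 bp at Gsc and 21 bp at Cdx2. At Mesp1 it lay 198 bp downstream, so that most of this promoter lies inside the gene. In the sequences below, written 5′ to 3′ on the strand of the gene, capitals mark CpG pairs, the dinucleotide that CpG islands are rich in. T is shown for a middle number of CpG pairs, Gsc for the highest of the 6 and Mesp1 for the lowest. Alb, the serum albumin gene of the liver, was chosen after its values were seen, as a product of mature endoderm with no H3K4me3 peak in its window. The windows are chr17:8434173-8434472 on the plus strand for T, chr12:104473187-104473486 on the minus strand for Gsc, chr7:79793541-79793840 on the minus strand for Mesp1 and chr5:90460620-90460919 on the plus strand for Alb.
T: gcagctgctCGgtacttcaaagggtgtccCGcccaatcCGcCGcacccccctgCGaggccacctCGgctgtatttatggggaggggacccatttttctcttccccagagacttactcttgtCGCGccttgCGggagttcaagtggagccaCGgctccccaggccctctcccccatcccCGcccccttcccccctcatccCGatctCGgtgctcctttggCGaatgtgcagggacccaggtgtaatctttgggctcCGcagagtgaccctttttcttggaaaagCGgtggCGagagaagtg
Gsc: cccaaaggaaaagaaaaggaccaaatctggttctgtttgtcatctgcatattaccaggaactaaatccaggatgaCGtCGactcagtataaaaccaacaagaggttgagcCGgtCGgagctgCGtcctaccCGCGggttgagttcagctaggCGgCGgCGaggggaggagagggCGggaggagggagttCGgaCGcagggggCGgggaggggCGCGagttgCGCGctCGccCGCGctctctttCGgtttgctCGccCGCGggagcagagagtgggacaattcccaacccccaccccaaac
Mesp1: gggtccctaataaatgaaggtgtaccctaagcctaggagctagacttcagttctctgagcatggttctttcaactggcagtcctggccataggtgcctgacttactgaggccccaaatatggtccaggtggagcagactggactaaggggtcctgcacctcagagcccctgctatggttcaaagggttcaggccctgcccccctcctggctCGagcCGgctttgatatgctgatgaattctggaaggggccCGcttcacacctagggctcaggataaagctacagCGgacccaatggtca
Alb: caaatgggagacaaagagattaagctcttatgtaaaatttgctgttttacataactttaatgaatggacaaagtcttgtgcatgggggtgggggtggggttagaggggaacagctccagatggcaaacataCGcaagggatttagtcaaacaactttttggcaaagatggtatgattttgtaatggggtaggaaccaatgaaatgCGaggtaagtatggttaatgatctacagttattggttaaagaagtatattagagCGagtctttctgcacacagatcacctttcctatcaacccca

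The Gsc promoter held 25 CpG pairs with a ratio of observed to expected CpG of 0.934, the T promoter 17 with 0.607, and the Mesp1 promoter 4 with 0.174. The Alb promoter held 3 CpG pairs, a number close to that of Mesp1. In a window of 500 bp on both sides of the same start, Mesp1 had 60 CpG pairs and a ratio of 0.627. This was close to T, with 65 and 0.647, and below Gsc, with 103 and 0.936. The low Mesp1 number thus belongs to the short window, most of which lies inside the gene. All 300 bp of each of the 6 promoters lay inside an H3K4me3 peak. A promoter was called CpG-rich at a ratio of at least 0.6 and a GC share of at least 50%. This held for T, Gsc, Foxa2 and Cdx2, and for 47.7% of coding genes in the table. Eomes had a ratio of 0.607 but a GC share of 47.3%. With 6 of 10 promoters in hand, under 80% of the set, a statement on CpG content over the whole set is void. Over 16505 coding genes in the table, 95.3% of those with a CpG-rich promoter and 44.8% of the others had an H3K4me3 peak over a start site.

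The same 6 promoters were searched on both strands for short motifs of the factors that these genes encode. The T-box letters TCACACCT occurred in the Mesp1 promoter, where they lie near its 3′ end, and in 1.19% of coding promoters. The forkhead letters TGTTTAC occurred in the Cdx2 promoter and in 2.93% of coding promoters. The GATA letters AGATAA and the SOX letters ACAAAGG or ACAATGG occurred in none of the 6, and in 9.55% and 7.82% of coding promoters. The SOX strings share their first letters, and a promoter with either was counted once. A match describes the sequence only.

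Foxa2, a forkhead factor of definitive endoderm, node and floor plate, had a pair of peaks. The start-site peak, chr2:148043528-148047378, held all 4 annotated start sites, was 3851 bp long and had 438 tags at 114 per kb (103 to 125). A peak of 1382 bp, chr2:148048082-148049463, lay upstream with 159 tags at 115 per kb (97.9 to 134), nearly the same density. Only 703 bp separated them, and joining peaks less than 1000 bp apart made a domain of 5936 bp.

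Sox17, an HMG-box factor of endoderm and of haemogenic endothelium, differed from the rest in where its peak lay. The peak, chr1:4491163-4494132, sat over the 3′ part of the gene and covered 1349 bp of coding exon, 1320 bp of noncoding exon sequence and 301 bp of intron. It held 2 of 8 annotated start sites, both of transcripts outside the basic set, and the other 6 start sites lay 2198 to 3222 bp away from it. With basic transcripts alone, 9 of the 10 genes had a peak over a start site, and Sox17 was the exception. No coding share was computed for start sites of basic transcripts alone. At the same time its peak was the densest of the set, with 640 tags in 2970 bp or 215 per kb (199 to 233), which is percentile 97.9 among the start-site peaks of coding genes. Its interval did not overlap that of any of the other 15 peaks.

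The zinc finger factors Gata4 and Gata6, both of primitive endoderm and heart, differed in layout. Gata6, on chromosome 18, had a single peak of 6705 bp from 11049189 to 11055893, which reached 3281 bp upstream and 3423 bp downstream of the reference start and held 5 of 6 start sites. It had 845 tags at 126 per kb (118 to 135) but the lowest fold enrichment of the set, 3.09, at percentile 1.41 among coding start-site peaks. Its MACS score of 99.32 was also the lowest of the 10 start-site peaks, on a scale where 50 is the cutoff. The noncoding gene 1010001N08Rik starts 97 bp downstream of the Gata6 reference start on the opposite strand, inside the same peak.

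Gata4 had 4 separate peaks, the most of any of the 10 genes, spread over a gene of more than 70 kb. The peak over its reference start, chr14:63244691-63247000, was 2310 bp long with 191 tags at 82.7 per kb (71.4 to 95.3), the lowest density of the 10 start-site peaks. It held 2 of 5 start sites. The basic start at 63213607, inside the gene, lay 26617 bp from the nearest peak. The most upstream start at 63271692 and its neighbour at 63271124, of transcripts outside the basic set, lay 1852 and 1284 bp from the nearest peak. That peak, chr14:63267985-63269840, was wholly intronic and had 108 tags at 58.2 per kb (47.7 to 70.3), the lowest density of all 16 peaks. The other intronic peak, chr14:63255096-63256698, had 151 tags and a fold enrichment of 9.74, the highest of the 16. The last, chr14:63240224-63241334, had 102 tags and covered 613 bp of coding exon.

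Cdx2, the caudal homeobox factor of trophectoderm and of the later gut and tail bud, also had a pair of peaks. The start-site peak, chr5:147303861-147308102, reached 832 bp upstream and 3409 bp downstream, and its summit lay 2248 bp inside the gene. It had 620 tags at 146 per kb (135 to 158), with a fold enrichment of 3.33. A peak at the end of the gene, chr5:147298731-147301694, covered 890 bp of the last exon and 2074 bp past the annotated end, with 332 tags at 112 per kb (100 to 125). The start-site peak was the denser of the pair, and the intervals did not overlap.

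**Figure D2:**
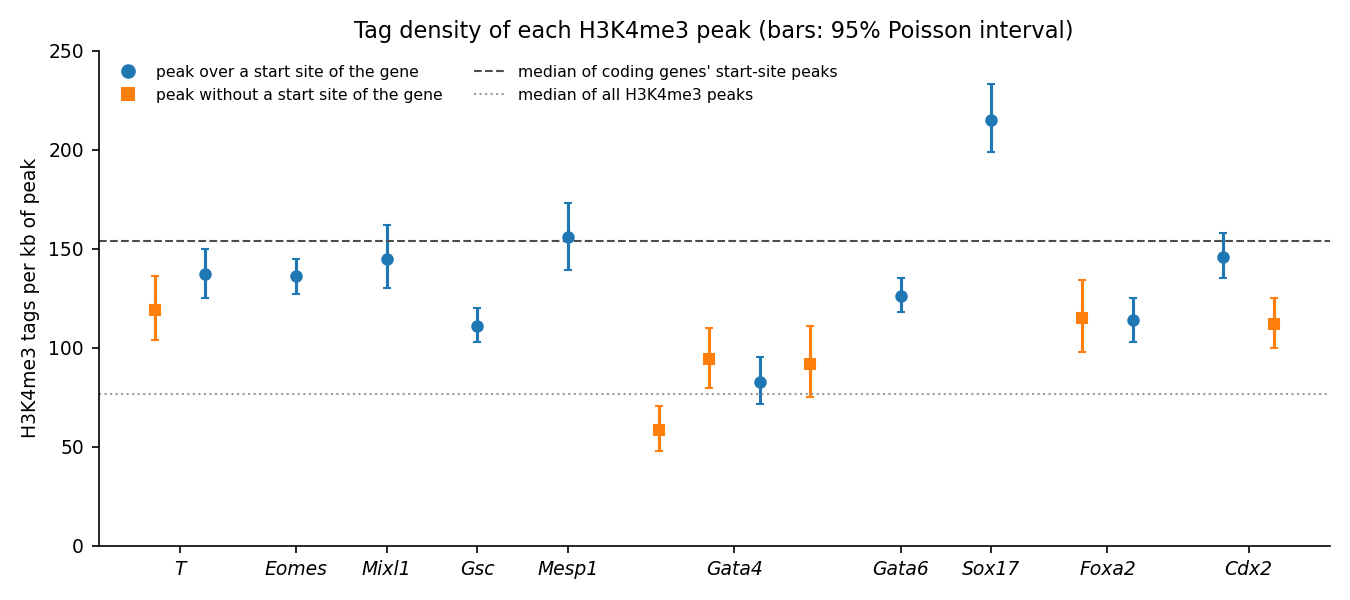
Tags per kb of each of the 16 H3K4me3 peaks, grouped by gene and ordered in the direction of transcription, with 95% Poisson intervals. Circles are peaks over a start site of the gene, squares are peaks without one, and the lines are the median of 154 for start-site peaks of coding genes and of 76.4 for all H3K4me3 peaks. Sox17 stands above the other 15 peaks and the most upstream Gata4 peak lies lowest.

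Per gene, the marked stretch within the window ranged from 1887 bp at Mesp1 to 6926 bp at Eomes, and the tags of all its peaks from 332 at Mesp1 to 952 at Cdx2. The median over the 10 genes was 5182 bp and 660 tags, beside 4049 bp and 599 tags over the 16725 coding genes with a peak in the window. Without upstream sequence, the stretch ranged from 956 bp at Mixl1 to 6880 bp at Gata4, with a median of 3206 bp over the 10 genes. With peaks at or above the list's median fold enrichment, the medians were 0 bp and 0 tags. No coding value was computed for these settings. Windows differ in length, and as a share of the window the marked stretch was 76.4% at Gsc, 57.5% at Foxa2 and 53.6% at Eomes, but 8.85% at Gata4. The median share was 32.2%, beside 14.2% over those coding genes. Of 7774 coding genes with windows of 15000 bp or less, a limit chosen after seeing the data that takes in 8 of the 10 genes, 55.6% had a peak, and the median share over these 4321 marked genes was 31.2%. Of the 8 genes, T, Eomes, Gsc, Foxa2 and Cdx2 lay above that share and Mixl1, Mesp1 and Sox17 below it.

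The start-site peaks of the 10 genes had a higher median width and a lower median fold enrichment and density than those of coding genes, with exceptions on each measure. The median width was 3596 bp beside 2968 bp, and 7 of the 10 exceeded the coding median, Mixl1, Mesp1 and Gata4 being narrower. Eomes, Gsc and Gata6 had start-site peaks of 5000 bp or more, which is 3 of 10, beside 12.8% of coding genes with a start-site peak. Fold enrichment went the other way, with a median of 4.20 beside 6.36, and 8 of 10 were below the coding median. Tags per kb had a median of 136 beside 154, with 8 of 10 below, and tags per peak had a median of 539 beside 470, with 5 above and 5 below.

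Fold enrichment varied with width among the start-site peaks of coding genes, so the genes were also set beside coding genes of their own width class. The median fold was 7.17 for peaks under 1000 bp, 9.55 for 1000 to 2000 bp, 7.47 for peaks of 2000 to 3000 bp, 5.92 for 3000 to 4000 bp, 4.91 for 4000 to 5000 bp and 4.05 for longer ones. Against the median of their own class, 9 of the 10 genes had a lower fold enrichment, and Mixl1 was the exception. Cdx2 was at percentile 3.17 of its class, T and Foxa2 at 6.73, and Eomes at 39.7. Tag density was below the class median in 8 of 10, with Mesp1 and Sox17 above it. Sox17 combined percentile 98.2 of its class by density with percentile 2.99 by fold enrichment. The part of the local background, taken by MACS from 10000 bp that can include marked sequence, was not tested.

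**Figure D3:**
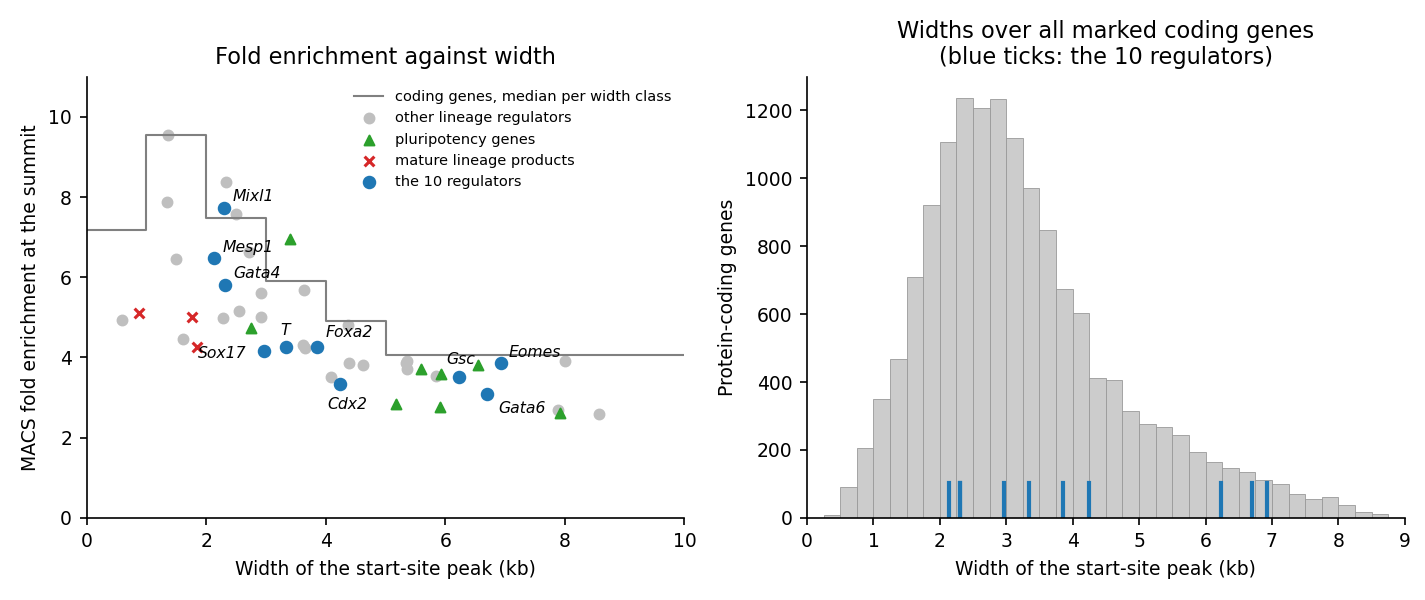
Left, MACS fold enrichment at the summit against the width of the start-site peak in kb, for the 10 genes (blue, named) and for genes of the other lists, with the median over coding genes per width class as a line. Right, number of protein-coding genes by width of the start-site peak in bins of 250 bp, with the 10 genes as blue ticks. Of the blue points, only Mixl1 lies above the line, and Eomes, Gsc and Gata6 sit in the long tail of the widths.

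Around the 9 reference starts inside a peak, the mark reached a median of 1729 bp upstream and 2420 bp downstream. Over coding genes these medians were 1127 and 1672 bp. The downstream side was the longer in 5 of 9 genes, namely Eomes, Mesp1, Gata6, Foxa2 and Cdx2, beside 74.6% of coding genes. At T, Mixl1, Gsc and Gata4 the mark reached further upstream than downstream of the reference start. The Gata4 stretch upstream of that start lay inside the annotated gene.

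The nearest ASH2L peak lay 28.5 kb from the reference start of Mixl1, 63.9 kb from Mesp1 and 128 kb from Eomes. For the other 7 genes it was 230 kb at Cdx2 to 19883 kb at Gata4. The median over the 10 genes was 415808 bp, beside 218066 bp over all coding genes. Even among the 14772 coding genes with H3K4me3 over a start site, 14.6% had an ASH2L peak in the window, so that a marked gene without an ASH2L peak was the common case. The weakest ASH2L peak in the list had 17 tags, and how many ASH2L tags fell on the 10 genes below the peak threshold cannot be read from the list.

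Other lineage genes, from lists written from general knowledge with earlier results of these data known, give the setting. All 32 other regulators of mesoderm, endoderm and trophoblast had an H3K4me3 peak in the window, and 26 had one over a start site. With peaks at or above the list's median fold enrichment, 13 of the 32 had one in the window, beside 50.5% of coding genes. The 6 without a peak over a start site were Meox1, Etv2, Tbx6 and Hand1 of mesoderm, Foxa1 of endoderm and Gcm1 of trophoblast. The most covered were Tead4 with 21833 bp, Tfap2a with 15149 bp and Gata2 with 10468 bp, all more than Eomes. The median width of their start-site peaks was 3622 bp and the median fold enrichment 4.63, both near the values of the 10 genes. ASH2L peaks were present at Tal1, Tead4 and Cdx1.

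Pluripotency genes had start-site peaks with a higher median width and density than the 10 regulators, although single genes overlapped. Of 12, 9 had a peak in the window and 8 had one over a start site, with a median width of 5757 bp, 988 tags and 162 tags per kb. At or above the list's median fold enrichment, 2 of the 12 had a peak in the window, beside 50.5% of coding genes. The start-site peaks of Zfp42, with 2746 bp, and Esrrb, with 3409 bp, were narrower than the regulators' median. In the whole window Esrrb had 18565 bp covered, Tfcp2l1 9473 bp and Klf5 7554 bp. Pou5f1, Sox2 and Nanog had none, as given above, and Sall4 had a peak that missed its start sites. The median fold enrichment of 3.65 was lower than that of the 10 lineage regulators, although the tags per kb were higher, so that fold enrichment did not rank these lists by tags. ASH2L peaks were present at Klf5 and Tbx3.

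Of 14 genes for mature products of the same lineages, 7 had a peak in the window and 3 had one over a start site, namely Mb, Ckm and Myl2 of muscle. The count of 7 of 14 stands beside 76.2% of all coding genes and 55.6% of those with windows of 15000 bp or less. It was 6 with 1000 bp upstream, beside 74.5% of coding genes. Without upstream sequence it was 5, beside 74.1%, and with 500 bp of overlap also 5, beside 75.6%. Hba-a1 and Sftpc had only 445 and 429 bp covered in the window. The 14 genes were not chosen by window length, which had a median of 13479 bp. With peaks at or above the median fold enrichment of the list alone, 6 of 14 mature products but 3 of the 10 regulators had a peak in the window. The order of these lists thus turns with that threshold for the window. For start sites it did not turn, but few genes were left and no coding share was computed at that threshold. The start-site peaks of Mb, Ckm and Myl2 had fold enrichments of 5.11, 5.01 and 4.27, below the list median of 6.46. Of the 10 regulators, 2 kept a start-site peak. Without that threshold, the start-site peaks of Mb, Ckm and Myl2 had a median width of 1765 bp, narrower than any start-site peak of the 10 regulators. Their tags per kb were 42.1 at Mb, 45.1 at Myl2 and 157 at Ckm, so that Ckm alone reached the density of the regulators. The mark covered 11509 bp at Mb, in 6 peaks, 6111 bp at Ckm and 3708 bp at Myl2. Hbb-bt of red blood cells, Ins2 and Gcg of the pancreas, Alb of the liver, and Tpbpa, Prl3d1 and Prl3b1 of the placenta had no H3K4me3 peak in the window. None of the 14 had an ASH2L peak.

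**Figure D4:**
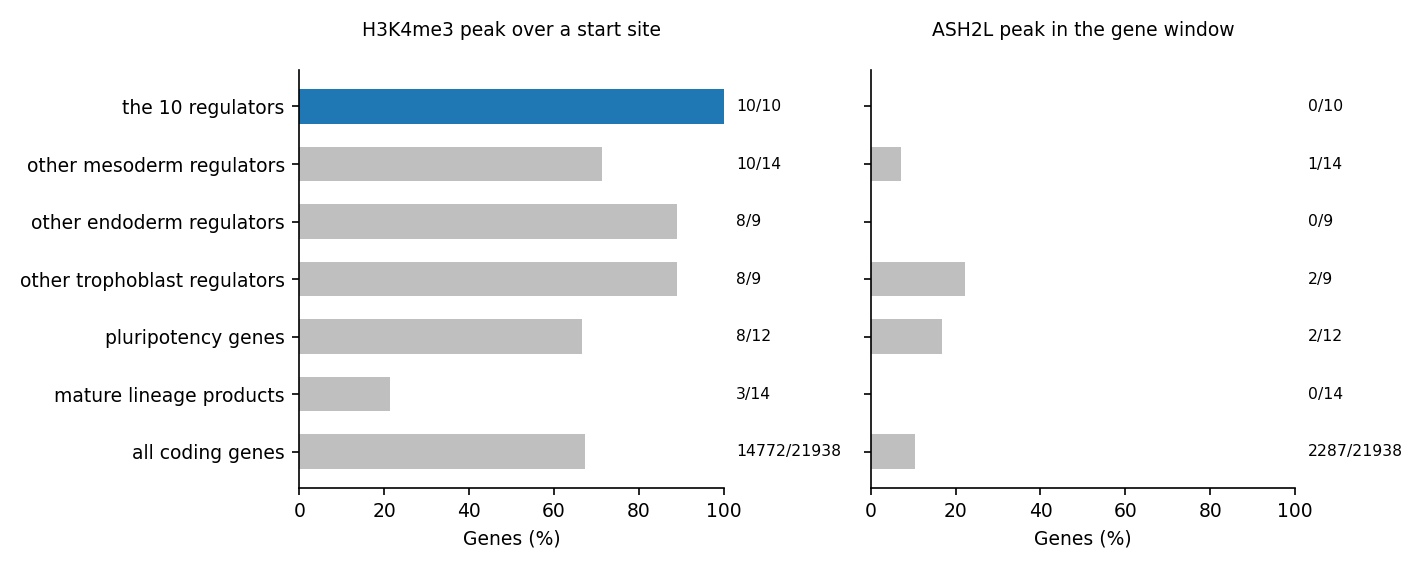
Share of genes (%) with an H3K4me3 peak over a start site (left) and with an ASH2L peak in the gene window (right), for the 10 regulators (blue), for the gene lists named in the text and for all protein-coding genes. Counts are printed at the right of each bar. All 10 regulators have an H3K4me3 peak over a start site, at Sox17 only over starts outside the basic set, beside 67.3% of coding genes. None of the 10 has an ASH2L peak in the window, beside 10.4% of coding genes. Of 14 mature products, 3 have H3K4me3 over a start site and none has an ASH2L peak.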

How the data were processed

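CUT&RUN was performed on E14 cells in 3 groups of 2 samples. Per the labels and the study's methods, the authors mapped reads to mm10 with Bowtie2. Peaks were called on the pooled duplicates by MACS (1.4.3 in the file headers) without a control library at a p-value cutoff of 1e-05, keeping 1 tag per position. The tag length in the headers exceeds the fragment limit in the methods, so whether only short fragments were counted is not settled. The deposited tag counts are whole tags per peak of the merged library. The deposited fold enrichment is a ratio to the local background of the same library. The deposited score is −log10 of the p-value multiplied by 10.

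From these lists, peaks sharing at least 1 bp with a gene window were assigned to the gene (GENCODE M21). Tags were summed over whole peaks, and covered length was counted inside the window. Percentiles are the percent of genes at or below a value. No test was made, since no sample has values of its own, and shares and percentiles are descriptions. The members and lists were chosen with earlier results of these data known. Named were all members and, from other lists, genes that went against the majority and up to 3 with the longest coverage. Start sites in the peaks of members were listed for all annotated genes. Alternatives were a shorter or no upstream stretch, stricter fold enrichment or score, an overlap of 500 bp and basic transcripts. Others were a peak within 1000 bp of a start site, joined peaks and a wider promoter. Short windows were added after seeing the data. The overlap procedure was tested on simulated data and recovered 2000 of 2000 genes. Scripts ran in Python 3.11.15 with pandas 2.3.3 and numpy 2.4.6, intervals came from scipy 1.17.1, sequences were read with pysam 0.24.0, and plots were drawn with matplotlib 3.10.9.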

Additional observations from a re-analysis of the deposited data

How the results depend on the processing

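Of 131 alternative values, 93 stayed within 1.5 times the reported value or, for percentages, within its 95% Wilson interval. With peaks at or above the list median, 3 of the 10 genes kept a peak in the window (Mixl1, Mesp1 and Gata4) and 2 kept one over a start site (Mixl1 and Mesp1), and the median covered length and tags both became 0. The share of coding genes with a peak in the window fell to 50.5%, and their share with a peak over a start site was not computed. By the same measure, other lineage regulators fell to 13 of 32, pluripotency genes to 2 of 12 and mature products to 6 of 14. The last is a higher share than that of the 10 genes. The ASH2L share of coding genes was 5.13%. With a score of at least 100, Gata6 lost its only peak and Foxa2 its upstream peak, other lineage regulators numbered 29 and pluripotency genes 7, and coding genes had 73.6% with H3K4me3 and 1.08% with ASH2L. Without upstream sequence, the median covered length was 3206 bp, with 74.1% and 9.66% of coding genes marked by H3K4me3 and ASH2L. With 1000 bp upstream these were 74.5% and 9.99%, and with 500 bp of overlap 75.6% and 9.71%. With windows of 15000 bp or less, chosen after seeing the data, they were 55.6% and 4.35%. The count of 10 genes without ASH2L could not change, since each of the 6 other settings only shortens windows or removes peaks. The count of 10 genes with a peak over a start site could not change either when peaks within 1000 bp of a start were allowed. These fixed values are among the 93, so that number overstates how stable the results were. Covered lengths of single genes stayed within 1.5 times in 42 of 60 values. For Gata4, basic transcripts left 3421 bp of 6880 bp. The number of CpG-rich promoters was 5 of 6 in the wider window and 4 in the narrow one. Among coding genes in the promoter table, the CpG-rich shares were 48.2% and 47.7%. The causes were not tested. No paired analysis was possible because both duplicates of a group had been pooled ahead of peak calling, and for the same reason no replicate could be left out. Single ASH2L peaks rest on few tags, with a median of 32, and 0.398% of that library's tags lay in peaks.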

Other observations

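Within 50 kb on either side of their windows, the 10 genes had 51 further H3K4me3 peaks, of which 10 lay over a start site of a protein-coding gene and 41 did not. T and Gsc had 9 such peaks each, none over a coding start, with up to 195 tags at T and 265 at Gsc. Mesp1 and Cdx2 had 8 each and Eomes 7. Mixl1 and Gata4 had 3 each, those of Gata4 all over coding starts, Foxa2 had 2, and Gata6 and Sox17 had 1 each. The flank length was chosen after seeing the data, and gene density around the 10 genes was not taken into account. The same counts were not made around other coding genes, so whether these numbers are high or low cannot be said. The ASH2L list had 1 peak in these flanks, near Mixl1, with 51 tags and over a coding start. These values are descriptions of 1 merged library per antibody.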
